A study of Mus musculus with 9 samples.

Results

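The genes described here are Ly6a, Ly6c1, Ly6c2 and Ly6e, members of the mouse Ly6 family, taken by symbol from the count tables of 9 Drop-seq samples. All 4 symbols are listed in every file, among 12580 symbols that are in every file and 33274 that are in at least 1. The samples hold mouse-derived cells of glioblastoma (GBM) PDOXs, which are tumors grown in the brain of mice from patient-derived organoids, in which the tumor is human and the cells around it belong to the host. There are 7 untreated PDOXs (P3, P8, P13, T16, T101, T192 and T233), 1 P3 PDOX treated with temozolomide (TMZ), called P3TMZ, and 1 normal nude mouse brain (Nu-NB). Hosts were female athymic nude mice, which lack a thymus, and their age is not given in the sources used here. Organoids were implanted in the right frontal cortex and untreated tumors were collected at the endpoint of each model, so that the PDOXs also differ in the time of growth. P3TMZ received TMZ by oral gavage and was not taken at an endpoint of its own. The study stopped that experiment for all mice once the control mice had symptoms, and it reports slower tumor growth under TMZ. The label calls P3 untreated, whereas the methods of the study give its control mice the vehicle. The same patient gave T192 and T233, and P3 and P3TMZ are from a single mouse each. According to the study P13, T16 and P3 show angiogenic features, while P8, T101, T192 and T233 are called invasive here. This grouping is not in the labels, and elsewhere the study calls the growth of P3 intermediate. FACS was the sort of Nu-NB and P8 and MACS that of the remaining 7 samples, and the same 2 files use an older release of gene symbols, so that sort and release cannot be told apart.

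Ly6 proteins are small cell surface proteins with a three-finger fold held by disulfide bonds, and most of them are attached to the membrane by a glycosylphosphatidylinositol (GPI) anchor. Ly6a, known as Sca-1, marks blood stem cells in mice and is also found on brain endothelium, where it serves as the receptor of an engineered adeno-associated virus that crosses the blood-brain barrier. Ly6c1 and Ly6c2 encode the near-identical proteins read together as Ly6C by flow cytometry, the antigen by which classical monocytes are told from resident macrophages. Ly6e is an interferon-induced member that restricts the entry of several viruses and is expressed by many cell types. Interferons raise several genes of this family.

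The 4 genes lie close together on chromosome 15 of the mouse genome (GRCm38) and all are protein-coding. Ly6a lies at chr15:74994877-74998031, Ly6c1 at chr15:75044018-75048830 and Ly6c2 at chr15:75108158-75111970, all on the minus strand, and Ly6e at chr15:74955051-74959905 on the plus strand. Their coding transcripts hold between 2 and 6 exons. The transcripts of Ly6c1 and Ly6c2 were identical at 802 of 822 aligned bases (97.6%), and their last 300 bases at 287 of 293 (98.0%), which matters because Drop-seq reads the 3′ end. Of the 50-base words in the last 500 bases of Ly6c1, 90 of 451 also occurred in Ly6c2, and 93 of those of Ly6c2 (20.6%) occurred in another gene. The share was 4.43% for Ly6a and 0 for Ly6e. How reads that match both genes were counted is not given in the sources used here, so that values of Ly6c1 and Ly6c2 are uncertain to that extent.

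Stretches upstream of Ly6c1 and Ly6c2 and outside their annotated transcripts are shown because these near-identical genes had different levels, as described below. The levels differed between endothelial-like cells and a cluster of several cell types, called the Ccr2 cluster below. RefSeq sequences (GRCm38.p6) had an entry for both genes and none for Ly6a and Ly6e. The first is chr15:75048921-75049087 and the second chr15:75112067-75112221, both read 5′ to 3′ on the minus strand, with the letters of a TATA box (TATAAA) or of an ETS motif (AGGAAG) in capitals.
Ly6c1: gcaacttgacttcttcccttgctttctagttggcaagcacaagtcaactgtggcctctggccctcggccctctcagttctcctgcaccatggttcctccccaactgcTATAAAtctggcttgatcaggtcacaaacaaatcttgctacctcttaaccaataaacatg
Ly6c2: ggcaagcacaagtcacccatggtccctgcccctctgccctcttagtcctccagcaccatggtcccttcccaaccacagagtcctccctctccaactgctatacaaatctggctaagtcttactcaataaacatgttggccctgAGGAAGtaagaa
Of 138 aligned bases 102 were identical (73.9%), a lower identity than that of the transcripts. On either strand, TATAAA occurs in 13.6% and AGGAAG in 35.4% of the 32817 RefSeq windows of 300 bases around a gene start. The letters TTCNNNGAA (the GAS motif, in 8.29% of windows), AGATAA (the GATA motif, in 11.2%) and the ISRE motif (in 3.43%) were searched as well and had no match in the stretches printed. The other window of Ly6c1, that of a start inside the gene, holds AGGAAG 3 times and is not printed, so that windows of both genes hold these letters. These are matches of letters only.

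The deposited tables hold UMI counts, where a UMI marks 1 captured RNA molecule, with totals between 1294068 and 8410580 per file. Of 33998 barcodes, 15391 passed fixed limits on genes and mitochondrial UMIs with a median between 521 and 1303 UMIs per cell in a sample, and 14622 cells were kept after removal of likely doublets. Pairs of samples shared 0 to 11 barcodes. Cells were clustered without any Ly6 gene and named from marker lists, which gave 2263 endothelial-like, 4210 myeloid-like, 2904 astrocyte-like, 838 OPC-like, 498 mural-like, 130 fibroblast-like, 237 choroid plexus-like, 270 ciliated ependymal-like and 332 neuronal-like cells, while 554 cells were mixed and 1867 unnamed. A cluster of 519 cells led by H2-Ab1, H2-Aa, S100a8, Ccr2 and Igkc holds markers of several blood-derived cell types, so it keeps no cell type name and is called the Ccr2 cluster. Levels are in CPM, the UMIs of a gene per 1e6 UMIs, from the UMIs of a class summed per sample with at least 10 cells, over the symbols in every file. Each UMI stands for 1 captured 3′ end, and no correction for transcript length was made. Intervals cover counting error only.

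Most UMIs of Ly6c1 lay in endothelial-like cells. Endothelial-like cells held 93.0% of its UMIs (7685 of 8262) and 13.5% of all UMIs. In the PDOXs these were 7015 UMIs of Ly6c1 and 5406 of Ly6a. Clustering at resolution 2 left 5248 and 4311 in endothelial-like cells and put 1616 and 1025 in unnamed clusters, among them a cluster of 249 cells of which 92.4% held a pair of endothelial markers. Their level of Ly6c1 was 3207 CPM in P8, 3177 in T101, 5044 in T192, 5676 in T233, 1998 in P3, 1855 in T16 and 2122 in P13, with a mean of 3297 ± 1521 (SD, n = 7). The next class, mural-like cells, had 38.2 ± 41.7 CPM (n = 6). All 6 PDOXs with both classes had the higher level in endothelial-like cells, with intervals apart in each. From mural-like cells down to fibroblast-like cells at 6.84 ± 11.8 (n = 3), neighbors in the order did not differ beyond their spread. Every endothelial marker was detected in the endothelial-like cells of every sample. In the other classes with at least 10 cells, the Ly6c1 level relative to endothelial-like cells had a median between 0 and 0.892%, beside a median of 0.564 to 8.22% for the summed endothelial markers.

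Ly6a had the same leading class with a wider reach. Endothelial-like cells held 87.0% of its UMIs (5890 of 6767). The level was 2226 CPM in P8, 3864 in T101, 3693 in T192, 3925 in T233, 1374 in P3, 1320 in T16 and 1644 in P13 (mean 2578 ± 1207, n = 7). The Ccr2 cluster came next at 485 ± 87.1 (n = 4), below endothelial-like cells and above mural-like cells in 4 of 4 PDOXs, although the intervals of the latter pair were apart in 2. Mural-like cells had 128 ± 172 (n = 6) and myeloid-like cells 73.2 ± 87.2 (n = 7), and 3 of 6 PDOXs had the higher level in mural-like cells. Both means rest on T101, without which they were 64.4 and 41.1. Below these, from choroid plexus-like cells at 26.6 ± 25.5 to fibroblast-like cells at 6.84 ± 11.8, neighbors in the order did not differ beyond their spread. Without P13 the mean of choroid plexus-like cells was 15.6, and that of fibroblast-like cells rests on 1 UMI.

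Ly6c2 had another order. The Ccr2 cluster held 63.0% of its UMIs (363 of 576) and 1.91% of all UMIs, and endothelial-like cells held 18.2%. In the Ccr2 cluster Ly6c2 was at 468 CPM in P8, 763 in T101, 119 in T192 and 1598 in P13 (mean 737 ± 631, n = 4). In endothelial-like cells it was at 106 CPM in P8, 68.8 in T101, 67.6 in T192, 66.9 in T233, 18.8 in P3, 36.7 in T16 and 19.6 in P13 (54.9 ± 31.6, n = 7). The Ccr2 cluster was above endothelial-like cells in 4 of 4 PDOXs, with intervals apart in 3. Myeloid-like cells had 24.6 ± 33.2 (n = 7), and mural-like cells 49.4 ± 120 (n = 6), where T101 reached 295 on 2 UMIs and the mean without it was 0.226. Without P3 the Ly6c2 mean of myeloid-like cells was 15.1, and without P13 that of the Ccr2 cluster was 450.1. No Ly6c2 UMI was found in the OPC-like, fibroblast-like and neuronal-like cells of the PDOXs.

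Ly6e was spread over all named classes and the Ccr2 cluster. Its UMIs lay in myeloid-like cells (41.7%), which held 35.7% of all UMIs, and in endothelial-like cells (30.1%). In endothelial-like cells the Ly6e level was 1626 CPM in P8, 2413 in T101, 3044 in T192, 2866 in T233, 1609 in P3, 1623 in T16 and 1804 in P13 (mean 2141, n = 7). The Ccr2 cluster followed at 1805 ± 350 (n = 4), below endothelial-like cells in 3 of 4 PDOXs with intervals apart in 2 of the 4. Myeloid-like cells had 1001 ± 336 (n = 7), below endothelial-like cells in 7 of 7 PDOXs with intervals apart in each. Ciliated ependymal-like cells had 586 ± 301 (n = 4), choroid plexus-like cells 530 ± 344 (n = 5), fibroblast-like cells 370 ± 102 (n = 3), mural-like cells 357 ± 220 (n = 6), neuronal-like cells 181 ± 103 (n = 4), OPC-like cells 167 ± 94.4 (n = 6) and astrocyte-like cells 109 ± 120 (n = 6). The ranges of neighbors in this order overlapped from ciliated ependymal-like cells down.

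**Figure D1:**
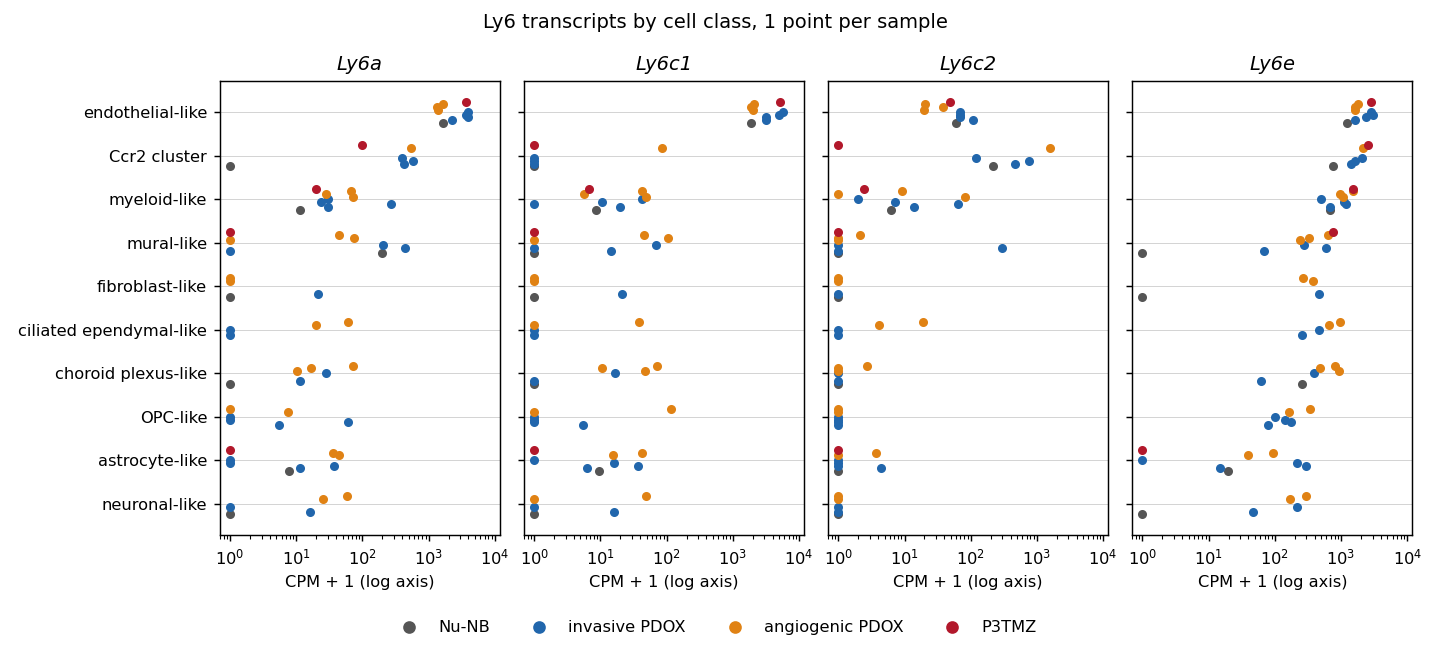
Level of Ly6a, Ly6c1, Ly6c2 and Ly6e in CPM (log axis, with levels of 0 drawn at its low end) in each named cell class and the Ccr2 cluster, with 1 point per sample. Ly6c1 and Ly6a have their highest points in endothelial-like cells and Ly6c2 has its highest in the Ccr2 cluster. Ly6e lies above 100 CPM on average in every named class and the Ccr2 cluster.

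The share of Ly6c2 among the UMIs of Ly6c1 and Ly6c2 differed between the classes although the transcripts are 97.6% identical. In endothelial-like cells of the PDOXs it was 1.38% (98 UMIs of Ly6c2 and 7015 of Ly6c1, exact 95% binomial interval 1.12 to 1.68%), between 0.916% in P13 and 3.20% in P8. Nu-NB had 1 Ly6c2 UMI among 33 (3.03%). In the Ccr2 cluster the Ly6c2 share was 97.6% (359 of 368, 95.4 to 98.9%), with all UMIs from Ly6c2 in P8 (11 of 11) and in T101 (170 of 170) and 172 UMIs of Ly6c2 beside 9 of Ly6c1 in P13. The ranges of the PDOXs did not overlap between the endothelial-like class and the Ccr2 cluster. Within the latter, the subcluster led by Igkc and Cd79b held 3 UMIs of Ly6c2 and 7 of Ly6c1. These 7 were all from P13 and 6 of them came from 1 cell. Myeloid-like cells lay between at 31.1% (70 of 225, 25.1 to 37.6%), from 2.33% in T233 to 62.9% in P3 among PDOXs with at least 10 UMIs of both genes together, where 17 of the 22 Ly6c2 UMIs came from 1 cell. Myeloid subclusters ran from 8.57% to 90.9%, the latter in cycling-like cells from 10 UMIs of Ly6c2 and 1 of Ly6c1. Of the 93 endothelial-like PDOX cells with a Ly6c2 UMI, 91 also held a Ly6c1 UMI, whereas 74.0% of all 2098 endothelial-like PDOX cells held 1 or more of Ly6c1. Endothelial-like cells with a Ly6c1 UMI had the higher median of UMIs in 6 of the 7 PDOXs, so that depth moves with this overlap, and its part was not tested.

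**Figure D2:**
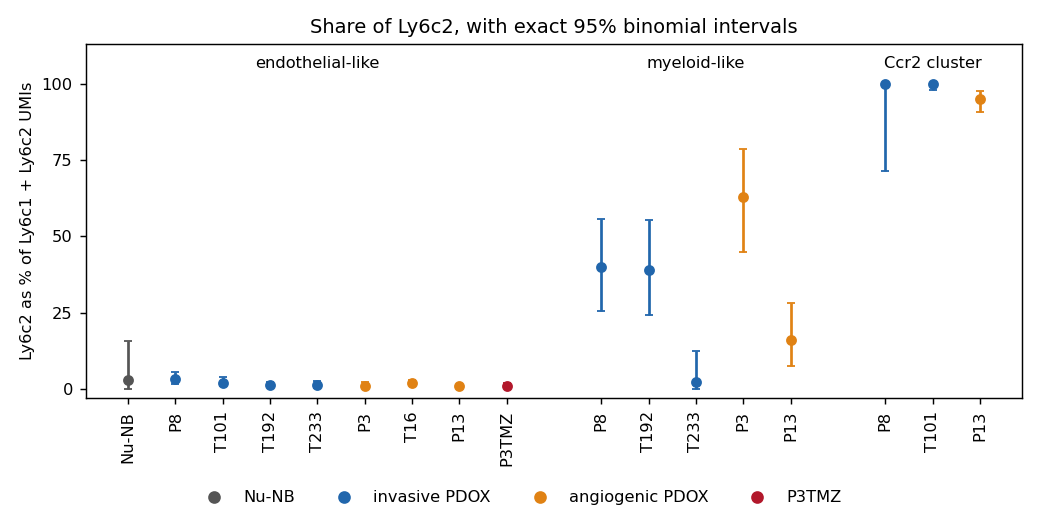
Ly6c2 as a percent of the UMIs of Ly6c1 and Ly6c2 (vertical axis) by sample in endothelial-like cells, myeloid-like cells and the Ccr2 cluster, with exact 95% binomial intervals as bars. Only sums of at least 10 UMIs of both genes together are drawn, and endothelial-like samples lie at 3.20% or less while P8 and T101 of the Ccr2 cluster lie at 100%.

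With each cell thinned to 500 UMIs, a median of 61.4% of endothelial-like cells held a Ly6a UMI over the 7 PDOXs (34.0 to 79.7%), 67.8% a Ly6c1 UMI (45.6 to 85.0%), 3.15% a Ly6c2 UMI (0 to 7%) and 62.1% a Ly6e UMI (49.7 to 71.7%). Shallower cells were left out, 763 of 2098. Astrocyte-like cells were taken as the background class, with 1.46% for Ly6a, 1.11% for Ly6c1, 0.209% for Ly6c2 and 3.13% for Ly6e over all PDOX cells, and medians over 6 PDOXs of 0.429%, 0.323%, 0% and 3.64%. Median depth before thinning was 960 UMIs in the endothelial-like and 861 in the astrocyte-like cells that were kept. Before thinning, the share in all PDOX cells was 68.1% against 1.72% for Ly6a, 74.0% against 1.67% for Ly6c1, 4.43% against 0.196% for Ly6c2 and 70.4% against 4.37% for Ly6e. In the Ccr2 cluster the thinned medians were 14.6% for Ly6a, 0% for Ly6c1, 19.7% for Ly6c2 and 50.1% for Ly6e (n = 4). Myeloid-like cells had 1.63% for Ly6a, 0.505% for Ly6c1 and 0.408% for Ly6c2, ranges that overlapped those of astrocyte-like cells, and 36.9% for Ly6e. Of the myeloid-like samples, T101 stood apart with 16.3% for Ly6a.

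In endothelial-like cells, the levels of all members were compared between PDOXs and Nu-NB, the comparison by which the study asks how the tumor changes host cells. Nu-NB gave 35 endothelial-like cells with 16803 UMIs, so its levels have wide intervals, and with 1 brain the test takes the spread of brains to be that of PDOXs. Ly6a was at 1666 CPM in Nu-NB (28 UMIs, exact Poisson interval 1107 to 2408), Ly6c1 at 1904 (32 UMIs, 1303 to 2688), Ly6c2 at 59.5 (1 UMI, 1.51 to 332) and Ly6e at 1250 (21 UMIs, 774 to 1910). For Ly6a, Ly6c1 and Ly6c2 the Nu-NB level lay within the range of the 7 PDOXs, and for Ly6e it lay below all of them, as did 31.2% of genes tested. The other FACS-sorted sample, P8, had 2226 CPM of Ly6a, 3207 of Ly6c1, 106 of Ly6c2 and 1626 of Ly6e.

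No member passed the threshold of PDOX against Nu-NB in endothelial-like cells (edgeR's quasi-likelihood test, FDR at most 0.01 and at least 2-fold). The log2 difference was 1.47 (SE 0.79, FDR 0.41) for Ly6a, 1.63 (SE 0.77, FDR 0.38) for Ly6c1, 0.52 (SE 1.66, FDR 0.91) for Ly6c2 and 1.62 (SE 0.63, FDR 0.34) for Ly6e. The median over all genes tested was 0.68, so that relative to it the values are 0.79, 0.96, -0.16 and 0.94. The share of genes called was 0% (0 of 6298), while 850 had an unadjusted p under 0.05. DESeq2 called 0 and had 420 at that level. The summed endothelial markers were at 18985 CPM in Nu-NB against 9133 to 13066 over the PDOXs, and their part in the result was not tested.

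Among the PDOXs, Ly6a, Ly6c1 and Ly6c2 were each lower in the endothelial-like cells of all 3 angiogenic models than in all 4 invasive models, which held for 5.89% of genes tested (250 of 4244). Ly6a was at 1446 ± 174 CPM (n = 3) in the angiogenic and 3427 ± 807 (n = 4) in the invasive PDOXs, a 2.37-fold lower mean. Ly6c1 had 1992 ± 134 against 4276 ± 1278 (2.15-fold) and Ly6c2, at 18.8 to 36.7 CPM against 66.9 to 106, was 3.09-fold lower in the mean. The Ly6c2 levels rest on 4 UMIs in P3, 24 in T16 and 27 in P13, against 12 in P8, 10 in T101, 15 in T192 and 6 in T233. Ly6c1 and Ly6c2 share 3′ sequence, as given above, so their values may not be independent. Groups overlapped for Ly6e, with 1678 ± 109 against 2487 ± 633 (1.48-fold), since P8 lay among the angiogenic PDOXs. By an exact two-sided permutation test over samples, p was 0.0571 for Ly6a, Ly6c1 and Ly6c2, which is the smallest that 3 against 4 samples allow, and 0.114 for Ly6e. The 4 invasive PDOXs cover 3 patients, since T192 and T233 share a patient, and these tests and SDs count them as 4 samples.

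In the fit across all genes, where 1.01% were called (43 of 4244, 22 higher and 21 lower in angiogenic PDOXs at an FDR of at most 0.05), no member passed the threshold by edgeR's quasi-likelihood test. The split of calls moved with the setting, to 52 higher of 153 with DESeq2. The log2 difference, angiogenic minus invasive, was -1.29 for Ly6a (SE 0.31, FDR 0.063), -1.15 for Ly6c1 (SE 0.33, FDR 0.097), -1.59 for Ly6c2 (SE 0.40, FDR 0.068) and -0.61 for Ly6e (SE 0.30, FDR 0.38). For Ly6a, Ly6c1 and Ly6c2 the call depended on the setting. Ly6a passed in 6 of 15 alternatives (FDR 0.00206 to 0.240), among them DESeq2 (FDR 0.00206) and the MACS-sorted PDOXs alone, that is without P8 and counted under both names, at a log2 difference of -1.47 (FDR 0.028). Ly6c1 passed only in DESeq2 (FDR 0.014) and was at -1.29 (FDR 0.060) among the MACS-sorted PDOXs. Ly6c2 passed in 3 of 15 (FDR 0.032 to 0.255) and Ly6e in 0 of 15 (0.159 to 0.689). All 15 alternatives kept the sign of each member. The p-values measure only the spread between these samples.

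**Figure D3:**
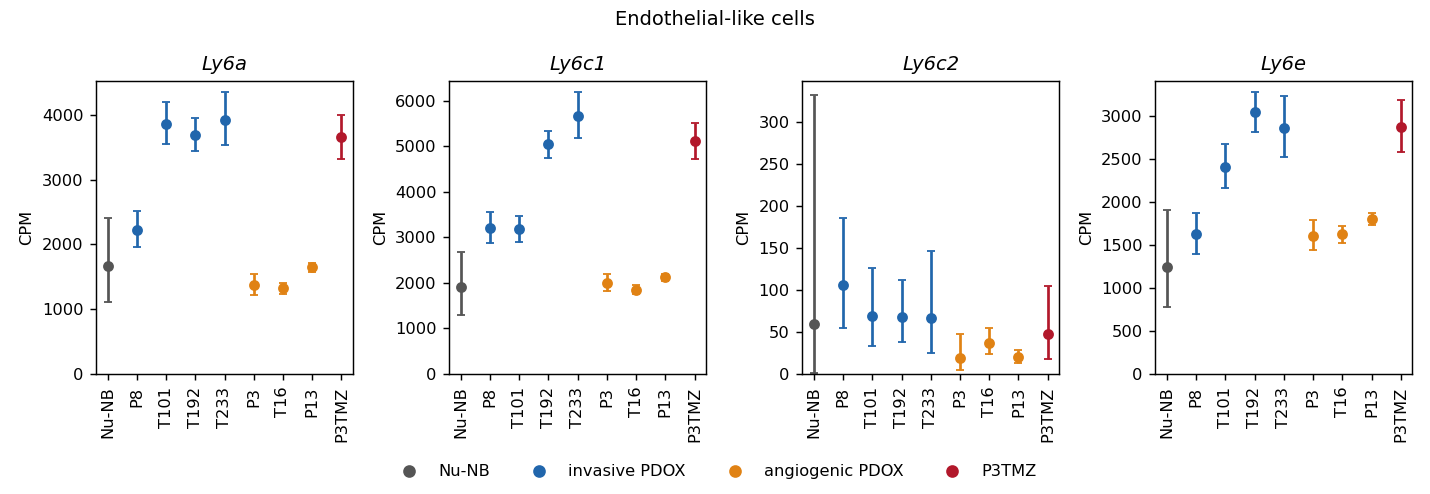
Level of the 4 Ly6 genes in CPM in endothelial-like cells by sample, with exact 95% Poisson intervals as bars and samples ordered as Nu-NB, invasive PDOXs, angiogenic PDOXs and P3TMZ. P3, T16 and P13 lie below P8, T101, T192 and T233 for Ly6a, Ly6c1 and Ly6c2, and P3TMZ at 3652 CPM of Ly6a and 5110 of Ly6c1 lies among the higher PDOXs.

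The members also varied among endothelial subclusters, which were made without them and of which only those of at least 10 cells in a sample are given. Arterial-like cells, marked by Gkn3, Bmx and Sema3g, had the highest level of Ly6c1 at 7730 ± 1939 CPM, against 2783 ± 1293 in the other endothelial-like cells of the same PDOXs, and were higher in 6 of 6. For Ly6a they had 4874 ± 1208 against 2410 ± 1221, again in 6 of 6, and for Ly6e 2884 ± 468 against 2136 ± 587 in 6 of 6. A subcluster led by Cxcl12, with 84.6% of its cells holding a pair of blood-brain barrier markers, was above the rest in 6 of 7 PDOXs for Ly6a and Ly6c1 and in 7 of 7 for Ly6e. That share is not particular to it. It was 97.7% in the subcluster led by Fmo2, 87.0% in that led by Cxcl10, 85.9% in arterial-like cells and 76.4% in that led by Scgb3a1.

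At the other end lay the tip-like subcluster led by Angpt2, Igfbp3 and Apln. Tip cells are known as the cells at the front of new vessels. The Ly6c1 level of this subcluster was 1979 ± 1295 CPM against 3331 ± 1092 in the rest, lower in 5 of 5 PDOXs, and Ly6a was at 1653 ± 1222 against 2323 ± 799, lower in 4 of 5. A subcluster led by Scgb3a1 had 2183 ± 1957 for Ly6a and 2367 ± 2078 for Ly6c1, lower than the rest in 5 of 6 PDOXs for both. Cycling-like endothelial cells, present in sufficient number in P13 alone, had 823 CPM of Ly6a and 695 of Ly6c1 against 2121 and 2951 in the rest. A subcluster led by Cxcl10 and Gbp2, genes raised by interferon, had 3173 ± 1562 of Ly6a and was above the rest in 3 of 3 PDOXs.

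**Figure D4:**
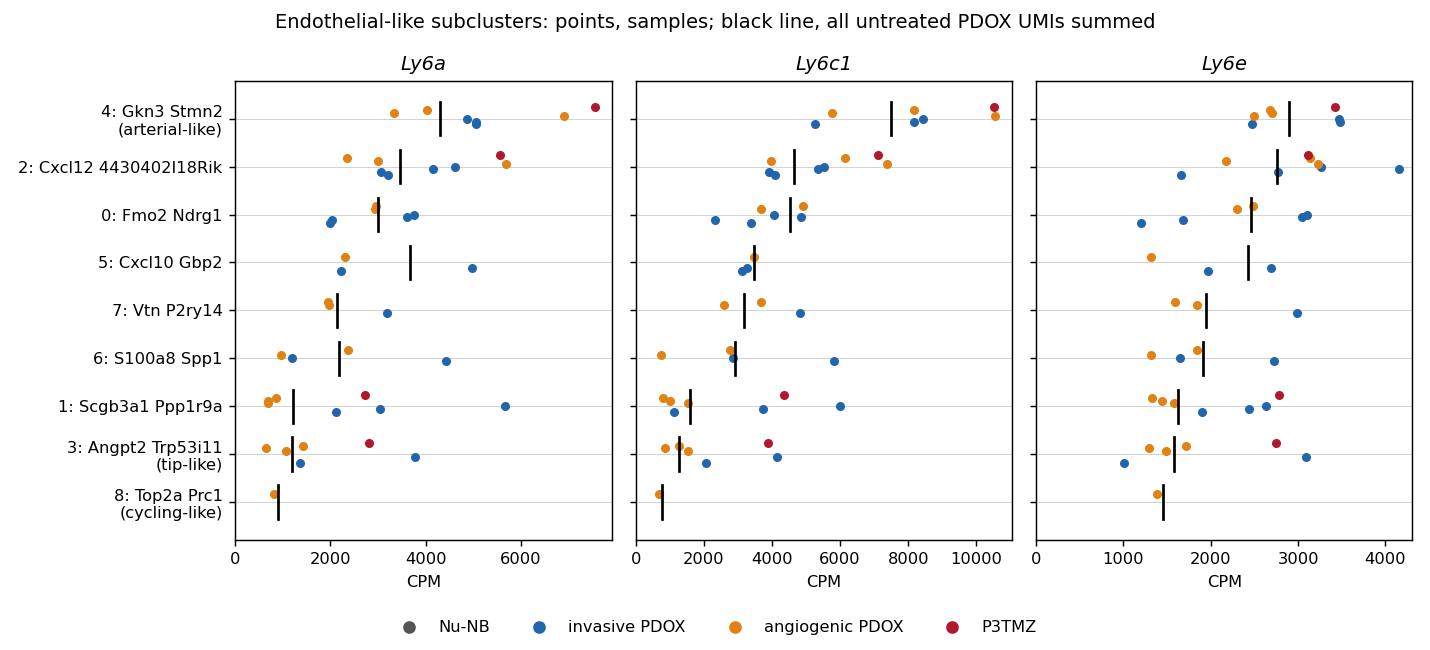
Level of Ly6 genes in CPM in endothelial subclusters, with 1 point per sample and subcluster of at least 10 cells. No Nu-NB subcluster reached that number. Arterial-like cells have the highest mean of Ly6c1 at 7730 CPM.

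The difference between angiogenic and invasive PDOXs was not the same in each subcluster. In arterial-like cells the groups overlapped, with Ly6a at 3329 to 6908 CPM in the 3 angiogenic and 4866 to 5055 in 3 invasive PDOXs, and Ly6c1 at 5758 to 10555 against 5274 to 8444. They overlapped too in the Cxcl12 subcluster, with Ly6a at 2350 to 5686 against 3059 to 4621. In the Scgb3a1 subcluster Ly6a was at 686 to 866 CPM in the angiogenic and 2127 to 5675 in 3 invasive PDOXs, with no overlap, and Ly6c1 at 800 to 1532 against 1119 to 5990. The tip-like subcluster led by Angpt2 had Ly6c1 at 862 to 1535 against 2078 to 4156, the latter from 2 invasive PDOXs, while its Ly6a overlapped at 644 to 1423 against 1366 to 3769. In the subcluster with the most cells, led by Fmo2, Ly6a overlapped at 2946 to 2957 in 2 angiogenic and 1999 to 3754 in 4 invasive PDOXs, and the mean of Ly6c1 was higher in the angiogenic PDOXs, at 4297 against 3657. These differences between subclusters were not tested.

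The make-up of the endothelial-like class moved with these groups. Arterial-like cells were 3.92 to 10.1% of endothelial-like cells in the 3 angiogenic PDOXs, 5.71% in P8 and 15.7 to 27.4% in T101, T192 and T233. The tip-like subcluster led by Angpt2 was 18.8 to 22.6% in the angiogenic PDOXs and at most 9.29% in the invasive ones. Another tip-like subcluster, led by Plvap, was 4.29% in P8 and at most 1.54% in the other PDOXs. The subcluster led by Cxcl10 and Gbp2 was 46.4% in P8, 35.4% in T101 and at most 2.56% in the other PDOXs. Summed tip-like markers were at 1373 to 2702 CPM and 245 to 1484 CPM. Summed blood-brain barrier markers were at 6000 to 10182 CPM and at 9925 to 14179. The summed endothelial markers did not overlap, at 9133 to 10151 CPM in the angiogenic and 12066 to 13066 in the invasive PDOXs. Their part in the difference of Ly6a and Ly6c1 was not tested. Without the subclusters with much RNA of myeloid or mural cells, the log2 difference of Ly6a was -1.38 (edgeR, FDR 0.038) and that of Ly6c2 -1.68 (FDR 0.045).

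In the Ccr2 cluster, the class with the highest Ly6c2, levels differed between PDOXs and between its subclusters. In T101, which gave 314 of its 519 cells, a subcluster led by Rsad2 and Cxcl10, both induced by interferon, had 3141 CPM of Ly6c2 against 315 in the rest, and a subcluster led by Cxcl13 had 141 against 1711. In P13 a monocyte-derived-like subcluster led by Tgfbi had 1742 against 1288. Over all PDOXs the subcluster led by Igkc and Cd79b, genes of B cells, had 133 CPM of Ly6c2 on 3 UMIs and 844 of Ly6a. Of the cells in the subcluster led by Rsad2, 68.4% held a pair of monocyte-derived markers, and of those in the subcluster led by Igkc 73.9% held a pair of B cell markers.

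In the Ccr2 cluster Ly6a was at 426 CPM in P8, 570 in T101, 396 in T192 and 548 in P13, while Nu-NB with 31 cells had 0 UMIs, so that the PDOX mean was at least 3.03-fold higher than the limit that 3 UMIs set there. With at least 500 genes per cell the PDOX mean was lower, as given below, and this bound was not computed. The cells differ between the groups, since 19 of the 31 Nu-NB cells lay in the subcluster led by S100a8, beside 15 of 30 in P8, 1 of 314 in T101, 1 of 46 in T192 and 2 of 75 in P13. Ly6c2 in Nu-NB was at 213 CPM from 4 UMIs, 3 of them in 1 cell, within the range of the PDOXs. Ly6e was at 747 CPM in Nu-NB, below the 1405 to 2136 of the PDOXs. None of the 3 members tested passed the threshold (edgeR, FDR 0.18 for Ly6a, 0.53 for Ly6c2 and 0.48 for Ly6e), and 0.409% of genes were called (3 of 733). Ly6c1 was found in P13 alone, with 9 UMIs of which 6 came from 1 cell.

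Myeloid-like cells, which hold microglia and macrophages, had low levels of Ly6a, Ly6c1 and Ly6c2 beside endothelial-like cells. Ly6a was at 10.3 CPM in Nu-NB (4 UMIs) and at 29.6 in P8, 266 in T101, 22.2 in T192, 29.6 in T233, 70.6 in P3, 27.5 in T16 and 66.8 in P13. All 7 PDOXs were above Nu-NB, as for 15.4% of genes tested. The log2 difference was 2.52 (SE 1.23), or 2.42 relative to the median of all genes, and did not pass the threshold (edgeR, FDR 0.28), which 0.0206% of genes did (2 of 9710). Summed endothelial markers in myeloid-like cells moved the same way, at 28.3 CPM in Nu-NB against 109 to 401 over the PDOXs, and their part was not tested. T101, with 82 myeloid-like cells, had the highest Ly6a and the lowest summed endothelial markers among the PDOXs. Both values rest on few UMIs, 17 of Ly6a and 7 of the markers.

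Ly6c1 in myeloid-like cells ranged from 0 in T101 to 48.3 CPM in P3 and was at 7.71 in Nu-NB, and Ly6c2 ranged from 0 in T16 to 81.7 in P3 and was at 5.14 in Nu-NB. Without the 1 cell that held 17 of its 22 UMIs, Ly6c2 in P3 was at 23.5 CPM. Ly6e was at 687 CPM in Nu-NB and at 669 in P8, 1173 in T101, 1108 in T192, 490 in T233, 1085 in P3, 977 in T16 and 1507 in P13, with a log2 difference of 0.76 (SE 0.53, FDR 0.45). For Ly6c1 and Ly6c2 the FDR was 0.40 and 0.67. Different clusters made up the class, since 631 of the 672 cells of Nu-NB lay in 1 cluster, which held 231 of 503 cells in P13, 135 of 265 in T16 and 12 to 85 cells in each other PDOX. Among PDOXs, angiogenic and invasive models overlapped for each member and none passed (edgeR, FDR 0.83 to 0.99), with 0.0232% of genes called (2 of 8619).

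Within the myeloid-like class, Ly6a and Ly6c1 were highest in a subcluster led by Ttr, Enpp2 and Cxcl12, genes of choroid plexus and vessels, with 124 ± 60.9 CPM of Ly6a (above the rest in 5 of 5 PDOXs) and 141 ± 126 of Ly6c1 (4 of 5). The microglia-like subcluster found in all 7 PDOXs had 55.8 ± 58.3 of Ly6a, 10.2 ± 21.1 of Ly6c1 and 1391 ± 497 of Ly6e. Border-associated macrophage-like cells, marked by Mrc1 and Lyve1, had 1532 ± 663 of Ly6e (n = 2). Ly6e was below the rest of the class in 4 of 4 PDOXs in a subcluster led by H2-Aa and Mmp12, at 666 ± 244 against 885 ± 359 CPM.

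P3TMZ was set beside P3, with 1 sample on either side and therefore no test. In endothelial-like cells Ly6a was at 1374 CPM in P3 and 3652 in P3TMZ, a ratio of 2.66 (95% counting interval 2.29 to 3.09). Ly6c1 went from 1998 to 5110 (2.56, 2.26 to 2.90), Ly6e from 1609 to 2875 (1.79, 1.54 to 2.08) and Ly6c2 from 18.8 to 48.1 (2.56, 0.607 to 12.3, on 4 and 6 UMIs). Of genes with at least 20 UMIs in the pair, 4.42% (141 of 3193) were over 2-fold higher in P3TMZ, among them Ly6a and Ly6c1. The median log2 ratio over these genes was -0.09. P3TMZ thus lay above the range of the 3 angiogenic PDOXs and within that of the invasive PDOXs for Ly6a and Ly6c1.

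By subcluster, the higher levels in P3TMZ were found in some and not in others. In the Scgb3a1 subcluster Ly6a was at 686 CPM in P3 and 2738 in P3TMZ, and in the tip-like subcluster led by Angpt2 at 1065 and 2814. In arterial-like cells it was at 6908 and 7570 and in the Cxcl12 subcluster at 5686 and 5564. Ly6c1 followed the same division, with 1532 and 4356 in the Scgb3a1 subcluster and 10555 and 10518 in arterial-like cells. Arterial-like cells were 3.92% of endothelial-like cells in P3 (10 of 255) and 14.6% in P3TMZ (19 of 130), and summed blood-brain barrier markers were at 10182 and 13600 CPM. Summed endothelial markers were at 9905 and 13600 CPM and summed tip-like markers at 1477 and 697, and their part in the ratios was not tested. A subcluster with much myeloid RNA was 27.1% of the class in P3 and 2.31% in P3TMZ. Without it and the mural-rich subcluster, the ratio was 2.62 for Ly6a and 2.38 for Ly6c1.

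In myeloid-like cells the direction was the opposite for 3 members, although the interval of Ly6c2 in endothelial-like cells included 1. Different clusters made up the class, with 169 of 231 cells of P3 and 137 of 325 of P3TMZ in 1 cluster and 22 and 102 in another. Ly6a was at 70.6 CPM in P3 (19 UMIs) and 18.5 in P3TMZ (13 UMIs), a ratio of 0.263 (0.119 to 0.560), and Ly6c1 at 48.3 (13 UMIs) and 5.70 (4 UMIs), a ratio of 0.118 (0.0280 to 0.382), which was 0.281 without doublet removal (23 and 17 UMIs). Ly6c2 was at 81.7 and 1.43, where 1 cell of P3 held most of the UMIs. Of genes tested 2.44% (137 of 5616) were over 2-fold lower in P3TMZ, Ly6a and Ly6c2 among them, and Ly6c1 had too few UMIs for this count. Summed endothelial markers in myeloid-like cells were lower as well, at 401 CPM in P3 and 177 in P3TMZ, and their part was not tested. Ly6e had 1085 and 1514, a ratio of 1.40 (1.22 to 1.59).

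**Figure D5:**
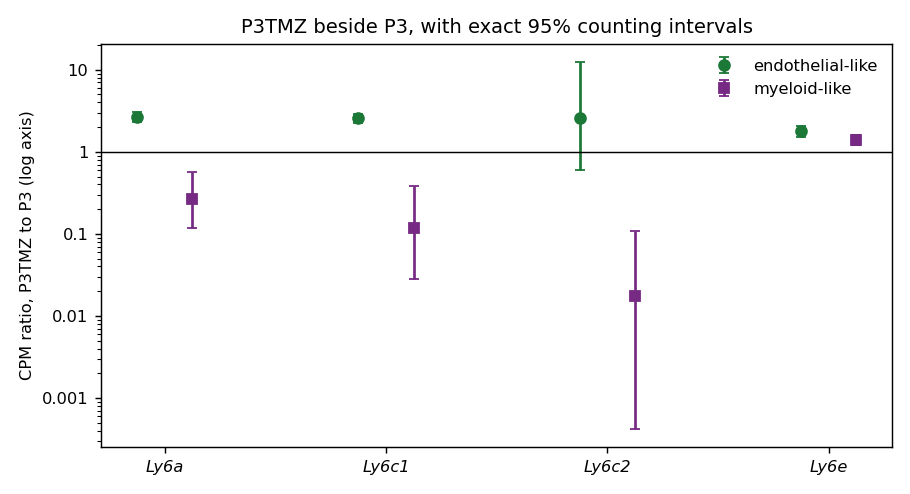
Ratio of the level in P3TMZ to that in P3 (log axis, with a line at 1) for the 4 Ly6 genes in endothelial-like and myeloid-like cells, with 95% counting intervals as bars. In endothelial-like cells Ly6a and Ly6c1 lie at 2.66 and 2.56, and in myeloid-like cells at 0.263 and 0.118.

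The genes whose levels followed each member most closely over the 65 sums of class and sample were named by Pearson correlation of log2(CPM + 10), as a description over 3940 genes and with samples and depth shared between points. For Ly6c1 these were Mal (0.95), Erg (0.94) and Cldn5 (0.94), of which Erg is an endothelial transcription factor and Cldn5 the tight junction protein of the blood-brain barrier. For Ly6a they were Erg (0.82), Pecam1 (0.81) and Cldn5 (0.81). Those of Ly6c2 were AW112010 (0.83), Il2rg (0.67), a receptor chain of lymphocytes, and Ly6a (0.66), while its near-copy Ly6c1 had 0.32. For Ly6e they were B2m (0.84), the light chain of MHC class I, Lmo2 (0.83) and Arpc1b (0.81).

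Of the 45 symbols of the wider LY6/uPAR family list, 9 were in every file, namely the 4 members with Cd59a, Cd59b, Lynx1, Lypd1 and Ly6h. No gene of the list passed a threshold in endothelial-like or myeloid-like cells. Cd59a, which blocks the complement attack complex, was at 349 ± 93.2 CPM in endothelial-like cells of the PDOXs (n = 7), the highest level of the list after Ly6c1, Ly6a and Ly6e. Of the genes that build the GPI anchor, 0 of 7 tested in endothelial-like and 0 of 23 in myeloid-like cells passed in PDOX against Nu-NB, where 4 of the 7 and 1 of the 23 were at 0 in Nu-NB, and 0 of 5 and 0 of 22 passed between angiogenic and invasive PDOXs. Of interferon-stimulated genes, 0 of 30 and 0 of 31 passed in either comparison. Of all genes 0% and 0.0206% were called against Nu-NB and 1.01% and 0.0232% between angiogenic and invasive PDOXs, so that these counts say nothing particular about either list. In Nu-NB 5 of the 30 and 2 of the 31 were at 0, and these passed the filter on low counts through the PDOXs, so that no median is given for that comparison. Between angiogenic and invasive PDOXs the median log2 difference was -0.84 in endothelial-like cells, beside -0.01 for all genes, and 0.28 in myeloid-like cells. In endothelial-like cells P8 and T101 stand apart, with 46.4% and 35.4% of cells in the subcluster led by Cxcl10 and Gbp2 against at most 2.56% in the other PDOXs, and their part in this median was not tested.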

How the data were processed

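Drop-seq libraries of mouse cells from 9 samples were compared. The deposited tables hold UMI counts per symbol and barcode, which the authors made with bcl2fastq 2.0 and STAR per the labels and for which they mapped reads to human and mouse (GRCm38, mm10) genomes and kept the mouse cells. The counting settings are not given in the sources used here. The study set limits per sample as well, which were not used here. As in its methods, cells with at least 200 genes and at most 30% mitochondrial UMIs and genes in at least 5 cells were kept. Doublets were treated differently, as scrublet scores were used to leave out the top 5% of each sample (scanpy 1.11.5). Cells were clustered without batch correction from 2000 variable genes, without genes of the LY6/uPAR list and mitochondrial genes, with 30 components, 20 neighbors and Leiden resolution 1 (leidenalg 0.10.2, Python 3.11.15). Clusters were named from marker lists. The naming rule, which asks for 30% of cells with a pair of markers, a relative level of 0.25 and at least 3 detected markers, was set after clusters had been seen, so that differences from the study may come from rebuilt names.

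UMIs of each class were summed per sample with at least 10 cells, and CPM (the count divided by the summed UMIs of symbols in every file, times 1e6) was computed. Sums were tested with edgeR 4.0.16 (quasi-likelihood test, TMM, filterByExpr, R 4.3.3) with Benjamini-Hochberg adjustment over all genes tested, called FDR, for PDOX against Nu-NB at 0.01 and at least 2-fold and for angiogenic against invasive PDOXs at 0.05. DESeq2 1.42.0, another normalization, no filter on low counts, other cell filters, resolution 2, other thinning depths and leaving out each PDOX were alternatives. The test was tried on simulated counts first. Exact intervals (95%) cover counting error only, and a level of 0 was bounded at 3 UMIs. The members and the lists were chosen with earlier results of these data known. Named were the 4 members in every class, the 5 genes of the family list with the highest level where none passed, and the 3 genes most like each member.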

Additional observations from a re-analysis of the deposited data

Results flagged for a closer look

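In 8 of 34 groups of PDOX values 1 sample lay far from the others, where chance gives about 1 in 20 groups. In 3 of the 8 every other PDOX was at 0, so that a single value above 0 stands apart by construction and the chance rate says little. Most of these values rest on few UMIs. Ly6a in myeloid-like cells was at 266 CPM in T101 (17 UMIs), with the next PDOX at 70.6. Ly6c1 in the Ccr2 cluster was at 83.6 CPM in P13 (9 UMIs), with the other PDOXs at 0, and in ciliated ependymal-like cells at 37.2 CPM in P13 (37 UMIs), with the others at 0. In OPC-like cells Ly6a was at 58.5 CPM in T101 (2 UMIs, next 6.48), Ly6c1 at 115 in P13 (2 UMIs, next 4.44) and Ly6e at 344 in P13 (6 UMIs, next 176). Ly6c2 was at 295 CPM in mural-like cells of T101 (2 UMIs, next 1.13) and at 1.72 in choroid plexus-like cells of P13 (1 UMI, others 0).

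The ratio of P3TMZ to P3 went in opposite directions in endothelial-like and myeloid-like cells for 2 members, with intervals that left out 1 in both classes. It was 2.66 against 0.263 for Ly6a and 2.56 against 0.118 for Ly6c1. Ly6c2, at 2.56 against 0.0174, is not among them because its interval in endothelial-like cells (0.607 to 12.3) included 1. With 1 sample on either side, the difference between the classes was not tested.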

How the results depend on the processing

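No member passed the threshold of PDOX against Nu-NB in endothelial-like or myeloid-like cells under any alternative run. Between angiogenic and invasive PDOXs, endothelial-like Ly6a passed with DESeq2 (-1.30), at least 500 genes per cell (-1.39), resolution 2 (-1.36), MACS-sorted PDOXs alone (-1.47) and, chosen after seeing the data, 2 subclusters left out (-1.38). Ly6c1 passed with DESeq2 (-1.16), and Ly6c2 with DESeq2 (-1.61), resolution 2 (-1.88) and 2 subclusters left out (-1.68). Leaving out 1 PDOX in turn gave -1.47 (without P8, passed) to -1.17 for Ly6a. The cause was not tested. Endothelial-like genes called between these groups were 43 (22 higher and 21 lower), and 153 with DESeq2 (52 higher), 332 without a filter (184 and 148), 53 at 500 genes (14 and 39), 25 without doublet removal, 83 at resolution 2 (26 and 57), 109 with 2 subclusters left out (36 and 73) and 1 to 43 with 1 PDOX left out (1 without P3, 2 without T16, 3 without T233, 13 without P13, of them 12 higher, and 19 without T101, while 8 of the 43 without T192 and 13 of the 34 without P8 were higher).

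In myeloid-like cells the sign of Ly6a turned with DESeq2 (-0.40) and at least 500 genes per cell (-0.17) and ranged from -0.062 (without T192) to 1.09 with 1 PDOX left out. That of Ly6c2 turned at resolution 2 (-0.22) and ranged from -0.58 (without P3) to 2.42. Genes called between angiogenic and invasive PDOXs were 2, and 16 with DESeq2 or no filter, 4 at resolution 2, 0 without doublet removal, at 500 genes or in MACS-sorted PDOXs and 0 to 30 with 1 PDOX left out (30 without P3, 8 without T233, 0 without P13, P8, T101 or T16). Between PDOXs and Nu-NB they were 2, and 151 with DESeq2, 1 without doublet removal or at 500 genes, 0 at resolution 2 and 2 to 84 with 1 PDOX left out (84 without P8 and 6 without T16).

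Ly6a in the Ccr2 cluster was at 255 CPM with at least 500 genes per cell and 605 as a mean of cells, against the 485 behind the bound of 3.03-fold. Its mean share of cells at 1000 UMIs was 26.0% (2 PDOXs). Ly6c2 there was at 367 CPM with at least 500 genes per cell (5 PDOXs), against 737. The mean Ly6e share over PDOXs at 300, 500 and 1000 UMIs was 47.8, 62.4 and 80.8% in endothelial-like, 23.9, 36.3 and 59.8% in myeloid-like cells and 40.5, 51.6 and 79.4% in the Ccr2 cluster, the last from 2 PDOXs. At 500 genes, the myeloid-like ratio of P3TMZ to P3 was 0 for Ly6c2 and 1.17 for Ly6e, and without doublet removal that of Ly6c1 was 0.281 and at resolution 2 that of Ly6c2 was 0.0647. At 500 genes neither endothelial-like Nu-NB values nor the endothelial-like ratio of Ly6c2 could be had. At resolution 2, 1616 of the Ly6c1 UMIs of the PDOXs lay in unnamed clusters and 5248 in endothelial-like cells, against 7015. In all, 657 values kept their call or size, 10 passed anew, 49 moved and 5 changed sign. No paired analysis was possible because the replicate numbers used here only name samples and mark no shared animal, batch or day.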
